A study of Mus musculus with 2 samples.

Results

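The translation initiation factor genes were taken as the autosomal protein-coding genes of the GENCODE annotation (release vM21, GRCm38) whose symbol begins with Eif and a digit. They number 52 of 20807 autosomal protein-coding genes, and 3 further symbols of this kind lie on the sex chromosomes and were left out by the rule. At their transcript starts the histone mark H3K4me3 was examined in lung group 2 innate lymphoid cells (ILC2s), which had been profiled by CATCH-seq, a native chromatin immunoprecipitation for small cell numbers in which micrococcal nuclease cuts the chromatin and carrier DNA is added. One group was 8-week-old offspring of control mothers, sensitized with PBS and alum and then given PBS intranasally between gestation days 4 and 17. The other was 8-week-old offspring of asthmatic mothers, which received ovalbumin (OVA) by the same routes, 100 µg with alum at each sensitization and 500 µg per intranasal dose. The mothers were C57BL/6J mice, 6 to 8 weeks old when sensitized on days -21 and -7 and then mated with untreated males, and offspring of both sexes were used. Each group is 1 library of about 3000 ILC2s, sorted as CD45+ lineage- CD90.2+ ST2+ cells, from offspring of 1 dam, so litter, maternal treatment and library cannot be told apart, no value has a replicate, and no test between the groups was possible.

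Initiation factors bring the ribosome to the start codon of an mRNA. eIF4F (the cap binder eIF4E, the scaffold eIF4G and the helicase eIF4A) loads the mRNA, eIF2 delivers the initiator tRNA, eIF3 holds the small ribosomal subunit together with the other factors, and eIF1, eIF1A, eIF5 and eIF5B check the start codon and join the large subunit. eIF2B recharges eIF2 with GTP, and the eIF2alpha kinases block that step under stress. H3K4me3 marks nucleosomes beside the starts of active, mostly CpG-rich promoters, and ILC2s are tissue lymphocytes that make IL-5 and IL-13 when activated.

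The sequences below show the promoters on which the results turn. Each is the reference sequence of RefSeq (GRCm38.p6), whose table held 40 of the 52 genes, read 5′ to 3′ along the gene, and covers the 250 bases before the annotated start. In the first 3, CpG dinucleotides are in capitals. Eif3g had the highest-ranking start peak in the controls, Eif2b5 had a strong peak in that list and none in the other, and Eif4enif1 had none in either.
Eif3g (chr9:20898591-20898840, minus strand): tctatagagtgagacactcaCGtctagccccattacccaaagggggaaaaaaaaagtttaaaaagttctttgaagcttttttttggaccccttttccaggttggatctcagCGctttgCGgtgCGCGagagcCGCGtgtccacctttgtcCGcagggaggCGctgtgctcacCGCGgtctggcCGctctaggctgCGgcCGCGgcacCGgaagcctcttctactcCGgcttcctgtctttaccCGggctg
Eif2b5 (chr16:20498567-20498816, plus strand): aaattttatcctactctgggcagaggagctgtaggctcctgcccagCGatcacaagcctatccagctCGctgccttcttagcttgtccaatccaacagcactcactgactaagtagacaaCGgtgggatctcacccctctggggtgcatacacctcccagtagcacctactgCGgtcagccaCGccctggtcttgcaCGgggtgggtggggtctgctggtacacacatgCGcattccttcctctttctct
Eif4enif1 (chr11:3202333-3202582, plus strand): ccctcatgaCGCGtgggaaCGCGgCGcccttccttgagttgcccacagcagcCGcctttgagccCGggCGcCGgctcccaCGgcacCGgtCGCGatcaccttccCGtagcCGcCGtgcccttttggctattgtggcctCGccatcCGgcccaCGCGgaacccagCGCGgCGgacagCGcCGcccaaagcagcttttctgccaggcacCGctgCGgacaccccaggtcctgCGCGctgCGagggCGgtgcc
These windows hold 18 CpG at Eif3g, 7 at Eif2b5 and 31 at Eif4enif1, so the gene without a peak is the one of these 3 that is richest in CpG.

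In the following windows the capitals mark CACGTG, the E-box bound by factors of the Myc family, and CCGGAAG in either direction, the core bound by ETS factors. Eif4e is shown because it encodes the cap-binding protein and its mark lies at an inner start. Eif5a2 is shown because it was the only member whose summit held more fragments in offspring of asthmatic mothers.
Eif4e (chr3:138527018-138527267, plus strand): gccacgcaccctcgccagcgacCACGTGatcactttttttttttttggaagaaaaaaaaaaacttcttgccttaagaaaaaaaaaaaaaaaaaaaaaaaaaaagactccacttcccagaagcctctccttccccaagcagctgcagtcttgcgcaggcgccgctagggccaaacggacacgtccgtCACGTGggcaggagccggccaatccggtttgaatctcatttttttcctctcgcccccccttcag
Eif5a2 (chr3:28781027-28781276, plus strand): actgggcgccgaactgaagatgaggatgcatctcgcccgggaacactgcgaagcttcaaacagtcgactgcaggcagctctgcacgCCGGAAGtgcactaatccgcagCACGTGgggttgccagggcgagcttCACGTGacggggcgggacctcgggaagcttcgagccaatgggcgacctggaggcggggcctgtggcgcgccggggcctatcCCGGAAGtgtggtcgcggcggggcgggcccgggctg
The Eif4e window holds CACGTG at 2 places and CCGGAAG at 0, and the Eif5a2 window holds each of them at 2 places.

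The authors deposited a list of called peaks for each library, 42126 peaks for offspring of control mothers (the control list) and 51610 for offspring of asthmatic mothers (the asthmatic list). Each peak has a fold over local background with its −log10 p and −log10 q. The study's reporting summary states that neither peak calling nor a quality check was done for the ChIP-seq, so how the lists were made is not known here. A peak within 1000 bp of any annotated transcript start of a gene is called a start peak here. The number of fragments stacked at a peak summit was solved from the fold and the −log10 p, under the assumption that peaks were called against local background with a Poisson model. This solution was exact within 0.01 of −log10 p for 99.99% of peaks in both lists. The lists were called separately, and the median summit held 21 and 18 fragments, respectively, so a peak missing from a list is not a missing mark. Of 10 ILC2 marker genes 8 had a start peak in the control list and 6 in the asthmatic list, with Gata3 and Il7r in the former only. Thy1 (CD90) and Il1rl1 (ST2), on whose proteins the cells were sorted, had one in both lists. Markers of T cells, B cells, macrophages and fibroblasts had 0 start peaks in either list. Epcam and Cdh1 (2 of 3 epithelial markers) and Kdr (1 of 3 endothelial markers) had one in the control list, and none of these 6 had one in the asthmatic list. The part of other cells in the results below was not tested.

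Nearly all initiation factor genes carried the mark. A start peak was listed for 49 of 52 in the control list (94.2%, exact Clopper-Pearson 95% interval 84.1 to 98.8%), beside 52.5% of all autosomal protein-coding genes. In the asthmatic list it was listed for 44 of 52 (84.6%, 71.9 to 93.1%), beside 43.7% of all genes. These intervals, and those of single peaks below, cover counting error only. All 44 were also in the control list (43.1% of all genes were in both), and at each of the 44 at least 1 start peak overlapped a peak of the other list, as it did at 8893 of the 8968 genes marked in both. A start peak was found in the control list alone for 5 genes, Eif2d, Eif2b1, Eif2b5, Eif3j2 and Eif3k (9.62%, beside 9.37% of all genes), and in the asthmatic list alone for 0 (an exact upper limit of 6.85%, beside 0.634% of all genes). The 3 genes with none in either list (46.9% of all genes) were Eif4e1b, Eif4ebp3 and Eif4enif1. Thus the share found in the control list alone was near that of all genes, while the share marked at all was well above it.

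Most other genes of the translation machinery were marked too. Of 73 cytosolic ribosomal protein genes 73 had a start peak in the control list and 72 in the asthmatic list, and of 18 aminoacyl-tRNA synthetase genes 17 and 16 had one. Of 35 other translation pathway genes, such as Pabpc1 (the poly(A)-binding protein), Mtor (the growth kinase) and Eef2 (the elongation factor that moves the ribosome), 35 and 32 had one, with Ddit3, Eef1d and Eef1g in the control list only. Among genes marked in the control list, 89.8% of initiation factor genes (77.8 to 96.6%), 98.6% of ribosomal protein genes (92.6 to 100.0%) and 82.1% of all genes (81.4 to 82.9%) were also marked in the asthmatic list. For aminoacyl-tRNA synthetase genes and other translation pathway genes the shares were 94.1% and 91.4%. The interval of the initiation factor genes covers the shares of all these groups except the ribosomal protein genes, whose own interval overlaps it.

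**Figure D1:**
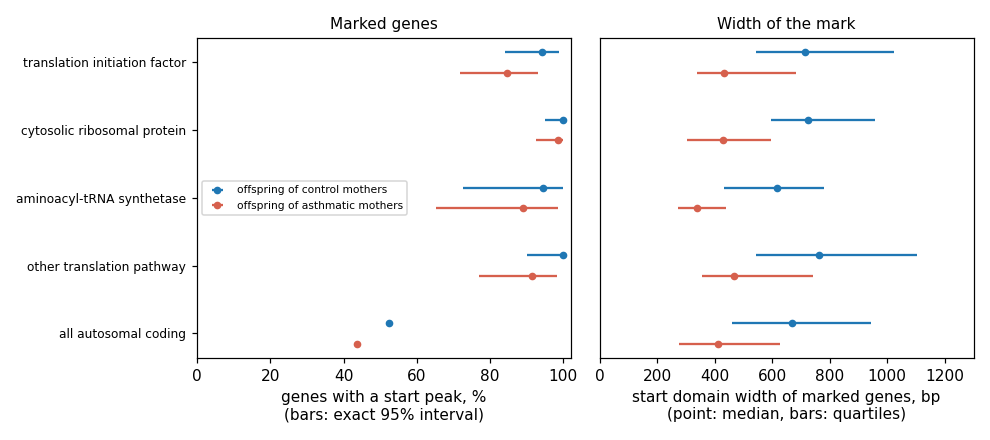
Left, share of genes with a start peak (percent, exact 95% interval); right, width of the start domain of marked genes (bp, median with quartiles), for 5 gene groups in offspring of control mothers (blue) and asthmatic mothers (red), 1 library each. The initiation factor genes lie at 94.2% and 84.6%, all autosomal coding genes at 52.5% and 43.7%, and the median domain of every group is narrower in offspring of asthmatic mothers.

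The 6 genes of start codon selection all had start peaks in both lists. Eif1b, a close relative of the start codon gatekeeper eIF1, ranked highest in the control list, with 33 fragments at the summit and a −log10 q of 17.3, against 20 fragments and 8.99 in the asthmatic list. Eif5, which triggers GTP hydrolysis on eIF2, ranked lowest in the control list with 26 fragments and a −log10 q of 11.0, and its strongest summit in the asthmatic list, at another of its peaks, held 20 (18 at the site of the control peak). Its mark was broad in both lists, and it was 1 of 3 that were wider in the asthmatic list, 1583 bp against 1498 bp. For Eif5b, which joins the ribosomal subunits, the start domain (start peaks and any peaks within 1000 bp joined) was the widest of all members in the control list, at 1820 bp. It spanned 471 bp in the asthmatic list, whose list lacked the upstream of its 2 peaks. Eif1ad, a relative of eIF1A, went from 31 to 13 summit fragments, a ratio of 0.419 (exact conditional 95% interval 0.201 to 0.825). The strongest peaks of Eif1a, Eif1ad and Eif5b also lay within 1000 bp of the start of a neighbouring gene (Tmed7, Banf1 and Txndc9, respectively), so the mark cannot be assigned to 1 of the genes.

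The genes of the eIF2 subunits ranked below the middle of the marked genes in both lists. Eif2s1, the alpha subunit that the stress kinases phosphorylate, had 20 fragments at its summit in the control list and 10 in the asthmatic list, the fewest of any member there, and it shared its peak with Atp6v1d. Eif2s2, the beta subunit, had 26 and 13. Both subunits thus had a fragment ratio of 0.50, and both intervals of the ratio reached above 1 (0.209 to 1.12 and 0.236 to 1.01). Eif2a, a separate factor that can deliver initiator tRNA, had 31 and 23, at a summit upstream of its start that it shared with Serp1. Eif2d, which delivers tRNA without GTP, had the lowest −log10 q of all 49 marked members in the control list, 5.58 with 15 fragments, at chr1:131153187-131153514 in its untranslated first exon.

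The 5 genes of eIF2B, the exchange factor that is mutated in vanishing white matter disease, divided. Eif2b2, Eif2b3 and Eif2b4 were marked in both lists, with 27, 29 and 19 summit fragments in the control list and 16, 20 and 13 in the asthmatic list. For Eif2b4 these are different peaks, and the control peak at the site of the asthmatic one had 18 fragments. Eif2b1 (chr5:124578738-124579092, intron 1, near the start of Gtf2h3) and Eif2b5 (chr16:20498904-20499278, intron 1) had a start peak in the control list only. They differed in strength. Eif2b1 had 19 fragments and a −log10 q of 9.07, at the 18.6th percentile of marked genes in its list. Eif2b5 (ENSMUSG00000003235.13), the catalytic subunit, had 30 fragments, as many as the median member, and a −log10 q of 18.7 at the 80.3rd percentile. In the asthmatic list the nearest peak to a start of Eif2b5 was 10642 bp away.

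Among all genes, weak control peaks more often lacked a start peak in the other list than strong ones. Of 463 genes whose −log10 q in the control list lay within 0.5 of that of Eif2b5, 4.97% had no start peak in the asthmatic list (95% interval 3.17 to 7.36%). For the other 4 genes marked in the control list alone the same share was 33.6% (Eif2b1), 56.1% (Eif3j2), 59.1% (Eif3k) and 67.9% (Eif2d). Eif2b5 is therefore the member whose absence from the asthmatic list is uncommon for a peak of its strength, and the other 4 were among weak peaks that were often missing.

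The 4 eIF2alpha kinases were marked in both lists. Eif2ak1 (HRI, the heme-sensing kinase) stood highest in the control list, with 35 summit fragments and a −log10 q of 24.9 at the 96.6th percentile. In the asthmatic list it had 15 fragments at the 45.5th percentile, a fragment ratio of 0.429 (0.217 to 0.805). Eif2ak2 (PKR, the kinase activated by double-stranded RNA) had 20 and 16 fragments, Eif2ak3 (PERK, the sensor of the endoplasmic reticulum) 24 and 16, and Eif2ak4 (GCN2, the sensor of amino acid shortage) 25 and 11. Only for Eif2ak1 and Eif2ak4 among these kinases did the interval of the ratio stay below 1. Both intervals included 0.611, the median ratio of all genes marked in both lists, so neither gene was set apart from genes in general.

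**Figure D2:**
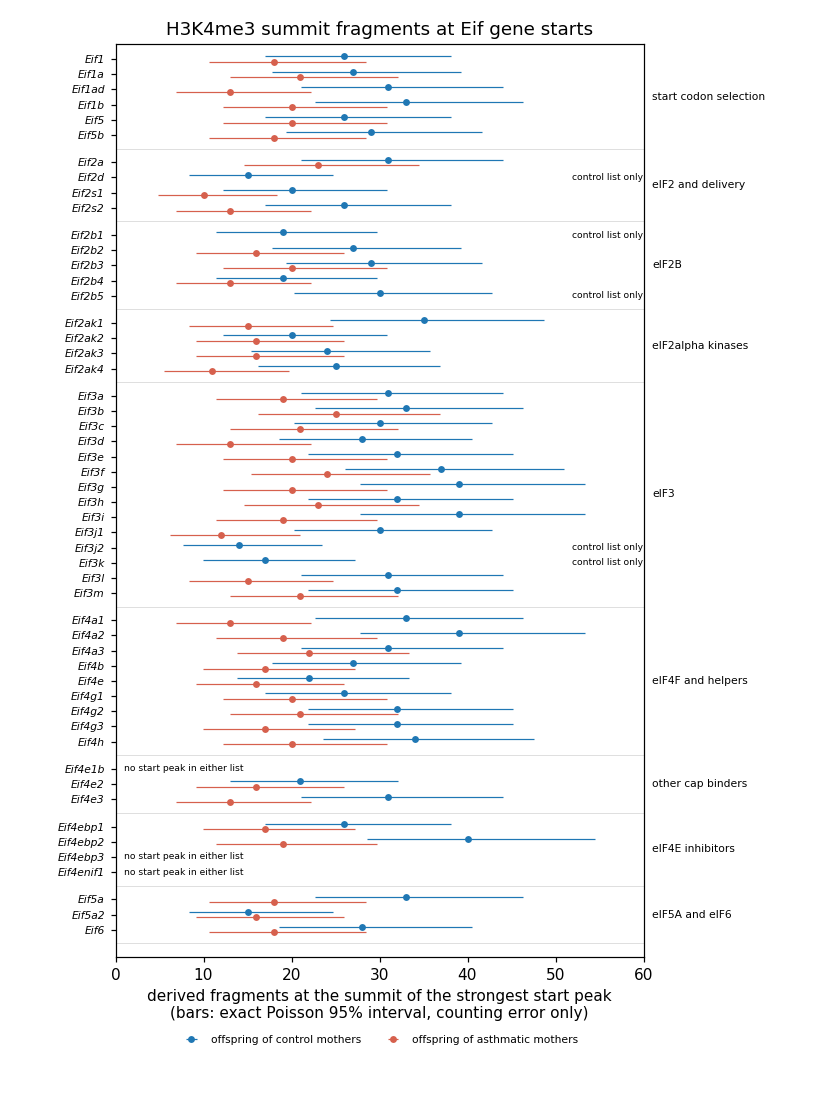
Derived fragments at the summit of the strongest start peak (x axis) for each of the 52 genes, grouped by role, in offspring of control mothers (blue) and asthmatic mothers (red), 1 library each, with exact Poisson 95% intervals for counting error. Of the 44 genes with both points, 43 have the red point at the lower number and Eif5a2 has 15 and 16; 5 genes have a blue point only and 3 have none.

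The genes of eIF3, the largest initiation complex, ranked highest as a group. Of the 14 genes 10 lay above the 75th percentile of −log10 q among marked genes in the control list (71.4%), compared with 6 of the 35 other marked members (17.1%). In the asthmatic list this held for 8 of 12 (66.7%) and 4 of 32 (12.5%), and for 7 of 12 eIF3 genes (58.3%) with single-copy summits only, without Eif3b. Eif3g (ENSMUSG00000070319.6), a subunit with an RNA-recognition motif, led in the control list with 39 fragments and a −log10 q of 29.6 at the 99.2nd percentile (chr9:20898174-20898555), and had 20 fragments at the 78.0th percentile in the asthmatic list. Eif3f, of the octamer core, was high in both lists, at the 97.8th percentile with 37 fragments and at the 98.2nd with 24, the highest rank of any member in the asthmatic list. Eif3i, Eif3e, Eif3m, Eif3l and Eif3h followed in the control list, between the 96.0th and the 88.9th percentile. Their order was not kept, since Eif3h, Eif3m and Eif3e were at the 97.1st, 92.9th and 89.03rd percentile in the asthmatic list while Eif3i and Eif3l were at the 62.4th and 45.5th.

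The domains of eIF3 genes were narrower than those of the other members. The median start domain of eIF3 genes was 554.5 bp in the control list and 375.5 bp in the asthmatic list, and that of the other marked members was 777 bp and 461.5 bp. The domain of Eif3g spanned 382 bp and that of Eif3f 428 bp in the control list. Across the 49 marked members there, Spearman's rho between −log10 q and domain width was −0.24, whereas across all 10917 marked genes it was 0.18. In the asthmatic list the sign was not the same, with 0.16 across 44 members and 0.35 across 9100 genes. Points of each relation come from 1 library.

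The 4 eIF3 genes under the 75th percentile in the control list were Eif3c (at 74.2), Eif3d, Eif3j2 and Eif3k, and Eif3d, Eif3i, Eif3j1 and Eif3l were under it in the asthmatic list. Eif3j1, a loosely bound subunit, went from 30 to 12 fragments, a ratio of 0.40 (0.187 to 0.805). Eif3j2, a close copy of Eif3j1 with 1 annotated start, had the narrowest domain of all members in the control list, 190 bp with 14 fragments. A width of 190 bp is also the smallest of any peak in that list. Eif3k had 2 small peaks on either side of its start, of 17 and 16 fragments, which joined with further peaks nearby to a domain of 1718 bp. For Eif3d, which can bind the cap of some mRNAs, 28 fragments at the 61.7th percentile faced 13 at the 9.14th percentile.

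In Eif3b, the scaffold of the complex, the value in the asthmatic list rests on a repeated sequence. Its highest peak there, at chr5:140438851-140439607 with 25 fragments and a −log10 q of 15.2, lay in intron 13 near an internal start, and the 75 bases around the summit occur at 8 places in the genome. At the first exon the same list had a peak of 12 fragments and a −log10 q of 4.72, against 33 fragments and 19.7 in the control list. It was the only member whose strongest peak had a repeated summit. Over all peaks of the 2 lists, at starts or elsewhere, 65.4% and 77.2% had one. Such summits were uncommon at coding starts in general. With single-copy summits only, 51.1% and 42.2% of all genes had a start peak, in place of 52.5% and 43.7%.

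**Figure D3:**
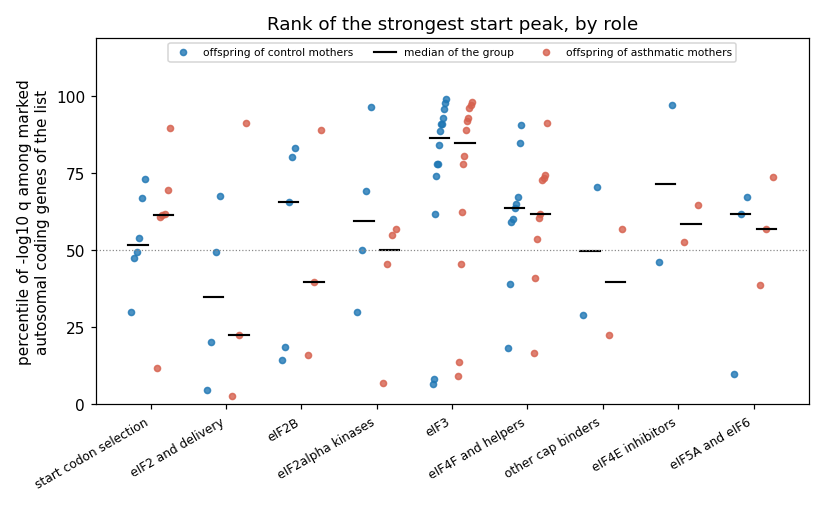
Percentile of the −log10 q of each gene's strongest start peak among all marked autosomal coding genes of the same list (y axis) by role (x axis), in offspring of control mothers (blue) and asthmatic mothers (red); black bars are medians. The eIF3 medians, 86.5 and 84.8, are the highest of the 9 groups in both lists, and single genes of most groups spread from below the 25th to above the 65th percentile. The eIF3 median of the asthmatic list counts Eif3b at the 96.1st percentile, by a peak with a repeated summit. With single-copy summits only, Eif3b was at the 9.38th percentile there.

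eIF4F and its helpers had broad marks, with a median domain of 1000 bp in the control list and 661 bp in the asthmatic list, and all 9 genes were marked in both lists. Eif4a2, a helicase of eIF4F, ranked highest in the control list with 39 fragments and a −log10 q of 21.6, and had 19 fragments in the asthmatic list. Eif4a1, the main helicase of proliferating cells, went from 33 to 13, a ratio of 0.394 (0.190 to 0.769), the lowest of the members whose strongest peaks overlapped between the lists. Eif4a3, which belongs to the exon junction complex rather than to eIF4F, had 31 and 22. The scaffolds Eif4g1, Eif4g2 and Eif4g3 had 26, 32 and 32 fragments against 20, 21 and 17, and the helicase cofactors Eif4b and Eif4h had 27 and 34 against 17 and 20.

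Eif4e (ENSMUSG00000028156.12), the cap-binding subunit that mTOR signalling controls, ranked lowest of the group in the control list, at the 18.1st percentile with 22 fragments, and was at the 53.8th with 16 in the asthmatic list. Its mark lay at an inner start. The strongest peaks, chr3:138527265-138528080 and chr3:138527327-138528056, had summits 1243 bp and 1267 bp downstream of the outermost main start, but 126 bp and 150 bp downstream of the nearest annotated start, beside which the window with both CACGTG copies lies. A weaker peak between the starts, with 21 fragments, was in the control list only. With the 5′ end of the gene as its sole start, Eif4e would have no start peak in the asthmatic list, and Eif4g1 none in either list.

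**Figure D4:**
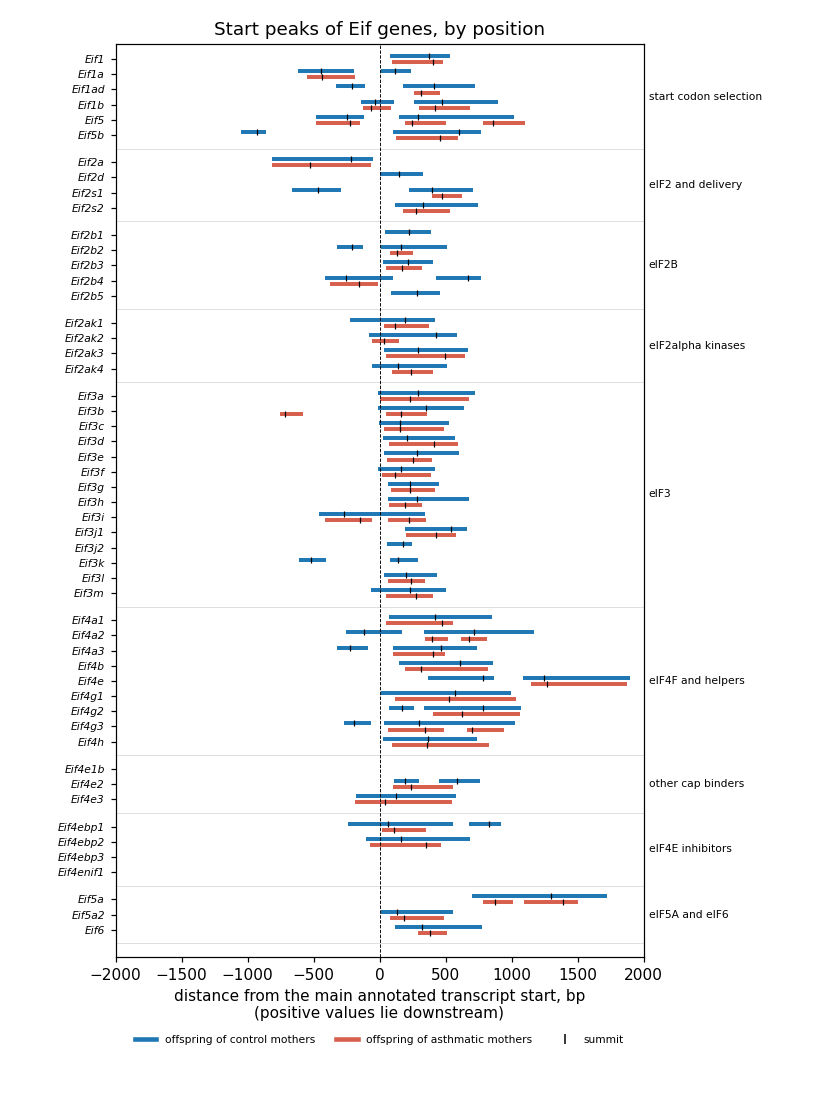
Position of each start peak (bars) and its summit (ticks) relative to the main annotated transcript start (x axis, bp, 2000 to either side) for the 52 genes, in offspring of control mothers (blue) and asthmatic mothers (red). Most peaks lie just downstream of the start, those of Eif4e and Eif5a lie farther inside the gene, and the internal peaks of Eif3b fall outside the range drawn.

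Among the other cap binders, Eif4e2 (4EHP, which represses translation) had 21 and 16 fragments, and Eif4e3 had 31 and 13 (ratio 0.419, 0.201 to 0.825) at a peak shared with Gm20696. Eif4e1b, known from oocytes, had its nearest peaks 5381 bp and 5427 bp from a start in the control and the asthmatic list. Of the inhibitors that hold eIF4E away from eIF4G, Eif4ebp2 was strongly marked in the control list, with 40 fragments, the most of any member, at the 97.03rd percentile, and had 19 fragments at the 64.7th percentile in the asthmatic list. Eif4ebp1 had 26 and 17. Eif4ebp3 had none, with the nearest peaks 5852 bp and 5909 bp away.

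Eif4enif1, which carries eIF4E into the nucleus, lacked a start peak although its promoter is CpG-rich. Its nearest peaks lay 2745 bp and 2724 bp from a start, where the caller's local background was 21.0 and 16.7 fragments, whereas at start peaks of coding genes the median background was 2.58 and 1.70. That this gene lacks the mark was not shown, and the effect of such a local background on calling at its start was not tested.

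Eif5a, the factor that relieves stalled ribosomes, had 33 and 18 fragments, at summits 1300 bp and 1388 bp downstream of its main start and near a further annotated start. Eif6, which keeps the large subunit apart, had 28 and 18. Eif5a2 (ENSMUSG00000050192.8), the second eIF5A gene, had 15 and 16 (ratio 1.07, 0.494 to 2.32), at the 9.76th and the 56.9th percentile. Its peaks, chr3:28781291-28781835 and chr3:28781352-28781761, lay just downstream of the window printed above.

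Across the 44 members marked in both lists, the median ratio of summit fragments, asthmatic over control, was 0.627, with a range from 0.394 to 1.07. In 3 of them, Eif2b4, Eif3b and Eif5, the strongest peaks of the 2 lists did not overlap, and their ratio compares different sites. This was so for 838 of the 8968 genes marked in both lists. With overlapping start peaks of both lists compared instead, a choice made after seeing the data, the median was 0.623 and the lowest ratio was that of Eif3b, 0.364 (0.171 to 0.722). The ratio was below 1 in 43 of 44, and its interval lay wholly below 1 in 14 (31.8%) and wholly above 1 in 0. These values were near those of all 8968 genes marked in both lists. The median ratio of those genes was 0.611, and 24.3% of them had an interval below 1. The interval of each of the 44 members included 0.611. The medians of ribosomal protein genes (0.567) and of aminoacyl-tRNA synthetase genes (0.60) lay slightly below that of the members. Fewer summit fragments in the asthmatic list were thus seen over genes in general. With the strongest peaks, 4 members lay under the 5th percentile of all genes (0.424), Eif4a1, Eif3j1, Eif1ad and Eif4e3 (5 with Eif3b where overlapping peaks were compared, with the 5th percentile at 0.423), and Eif5a2 alone lay above the 95th (0.904).

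**Figure D5:**
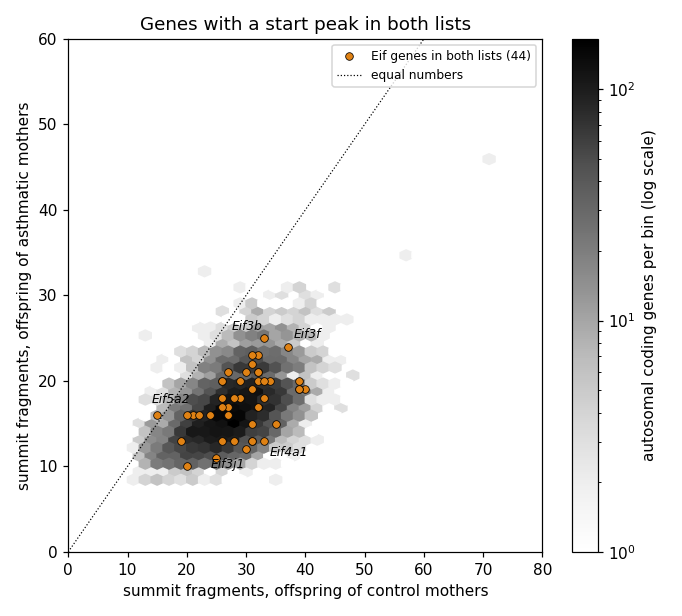
Derived summit fragments of the strongest start peak in offspring of control mothers (x axis) and asthmatic mothers (y axis), for all autosomal coding genes marked in both lists (grey bins, log colour scale, 16 genes beyond the axes not drawn) and the 44 initiation factor genes (orange); the dotted line marks equal numbers. The members lie within the cloud of all genes, and Eif5a2 is the member on the upper side of the line.

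Widths moved in the same way. The median start domain of marked members was 713 bp in the control list, from 190 to 1820 bp, and 431 bp in the asthmatic list, from 170 to 1583 bp, beside 667 bp and 410 bp over all marked genes. It was wider in the control list for 41 of 44 (93.2%), beside 92.3% of all genes in both lists. The exceptions were Eif5, Eif3b and Eif4h. After Eif5b and Eif3k the widest control domains were those of Eif4e, Eif5 and Eif4a2 (1532, 1498 and 1428 bp). The narrowest after Eif3j2 were those of Eif2d, Eif2b1, Eif2b5 and Eif2b3 (328, 355, 375 and 379 bp), so 4 of the 5 members missing from the other list were among the 5 narrowest, and Eif3k was the exception. A peak in either list could not be narrower than 190 bp and 156 bp, respectively, the smallest widths found.

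Within each list the members ranked above the middle of the marked genes, with a median percentile by −log10 q of 65.7 in the control list and 61.02 in the asthmatic list. The medians were 65.3 and 49.9 for ribosomal protein genes, 64.9 and 61.7 for aminoacyl-tRNA synthetase genes, and 57.2 and 55.4 for other translation pathway genes. Between the lists the order of the members was kept only loosely (Spearman's rho of −log10 q 0.38 across 44 members and 0.44 across 8968 genes), with counting error in both values.

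The summit of the strongest peak lay downstream of the nearest start in 39 of 49 members in the control list and in 31 of 44 in the asthmatic list, by a median of 147 bp and 116 bp over all of them, beside 114 bp and 109 bp over all marked genes. In the main transcript it most often fell in the first intron, in 29 and 25 members, or in the coding part of the first exon, in 9 and 7. In 17 members the control list had 2 start peaks, among them 5 of the 6 genes of start codon selection, and in 32 it had 1. The strongest peak lay within 1000 bp of another coding gene's start in 11 members of the control list and 9 of the asthmatic list. Outside the genes named above these were Eif2b4 with Snx17, Eif3k with Map4k1, Eif3i with Tmem234 and Eif3m with Ccdc73.

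The promoters of the members were rich in CpG. In windows of 250 bases before to 50 after the main GENCODE start, the median CpG ratio (observed over that from C and G content) was 0.798 in 52 members and 0.573 in 20804 genes, and the median GC content was 60.7% and 56.3%. A ratio of 0.4 or over was found in 51 of 52 members, of which 96.1% and 86.3% had a start peak in the 2 lists, compared with 76.1% and 64.01% of all genes with such a ratio. The exception was Eif4e1b (0.148, 3 CpG), which had no peak, and among all genes under 0.4 only 15.0% and 11.7% had one. Eif2b5 had the lowest ratio of the marked members, 0.411, at the 39.4th percentile of all promoters, whereas Eif2b1, also missing from the asthmatic list, had 1.22, above 99.6% of promoters.

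A run of at least 5 pyrimidines, counted from a C within 10 bases of the start whether or not pyrimidines precede it, was present in 23 of 52 members (44.2%), beside 31.1% of all genes, 45.2% of ribosomal protein genes and 16.7% of aminoacyl-tRNA synthetase genes. A tract at the very start of an mRNA is the terminal oligopyrimidine motif, through which mTOR and Larp1 control the translation of ribosomal protein mRNAs. The count here also takes runs up to 10 bases from the annotated start, so a run is not by itself that motif. A run within this distance was present in 9 of 14 eIF3 genes (64.3%) and in 14 of 38 other members (36.8%). With a run of at least 8 pyrimidines the counts were 6 of 14 and 6 of 38, and 8.29% of all genes and 28.8% of ribosomal protein genes had one. All these counts were taken at the main GENCODE start and depend on it. Eif3g had a run of 8 bases there but none at the RefSeq start. Eif4e had none at its main start but 8 bases at the inner start of the window printed above. Stretches of 30 bases centred on the RefSeq start, with the whole run of pyrimidines in capitals, show its form in members from different complexes.
Eif3f (chr7:108934400-108934429, plus strand): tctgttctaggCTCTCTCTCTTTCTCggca
Eif2b5 (chr16:20498802-20498831, plus strand): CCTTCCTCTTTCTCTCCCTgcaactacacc
Eif2b2 (chr12:85219466-85219495, plus strand): tttcaccgagcggaagttgaCCTCTCTCgg
Eif4g1 (chr16:20672712-20672741, plus strand): cgccagcgcagctccgCCCTCTgcgccggt
The run spans 15 bases in Eif3f, 8 in Eif2b2 and 6 in Eif4g1. In Eif2b5 it spans 21, of which 19 are within the stretch and 14 were counted by the rule. Eif3f ranked high in both lists and Eif2b5 was missing from 1 of them, so a long run of pyrimidines occurred with either outcome.

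Of 7 motifs searched on both strands of these windows, none of which contains another, CCGGAAG stood out by its share. It was present in 17 of 52 members (32.7%), 32.9% of ribosomal protein genes, 55.6% of aminoacyl-tRNA synthetase genes and 11.4% of all genes. The motif holds a CpG, and a CpG ratio of 0.4 or over was found in 51 of 52 members but in 12747 of 20804 genes. Motif shares over CpG-rich promoters alone were not taken. Among eIF3 genes it was in Eif3c and Eif3i at 2 places each and in Eif3d, Eif3g, Eif3h, Eif3k, Eif3l and Eif3m at 1. CACGTG was in 6 members (11.5%, beside 7.78% of all genes), Eif3a, Eif3f, Eif3k, Eif4g1, Eif4h and Eif5a2, and the window at the main start of Eif4e had none. TGATGNAAN, the composite site through which ATF4 acts in the stress response to eIF2alpha phosphorylation, was in 1 member (1.92%), the unmarked Eif4ebp3, beside 3.35% of all genes and 27.8% of aminoacyl-tRNA synthetase genes. A match is a string of letters in the window, and binding was not measured.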

How the data were processed

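H3K4me3 CATCH-seq peak lists of 2 libraries, 1 per group, were analysed. Per the labels and methods, the authors trimmed paired reads (Trim Galore, cutadapt), aligned them to GRCm38 (Bowtie2) and removed duplicates. The peak caller, its threshold and its use of an input are not given in the sources used here. The reporting summary says that no peak calling was done on these data, although the lists were deposited. The deposited lists hold a score, a fold (a ratio of summit signal to background), a −log10 p-value and a −log10 q-value per peak, with no depth and no scaling between libraries. Start peaks lay within 1000 bp of any transcript start (GENCODE vM21), and shared peaks overlapped by at least 1 bp. Ranks were taken within each list. Summit fragments were derived from fold and −log10 p, and intervals are exact at the 95% level (Clopper-Pearson, Poisson, conditional binomial) for counting error. Copies of 75 bases around summits were counted on both strands of the genome. Promoter windows came from the GRCm38 sequence at the main transcript start, and the printed sequences from RefSeq. Every member was accounted for by role. Values in full were given for members missing from a list, for the strongest and weakest control peak of each role, for the 5 widest and 5 narrowest control domains, for inner starts, near copies and fragment ratios outside the middle 90% of all genes. The members, lists and alternatives were chosen with earlier results of these data known. The overlaps, start assignment, derived fragments and copy counts were tested on simulated data. Analyses used Python 3.11.15 (scipy 1.17.1, pandas 2.3.3, numpy 2.4.6, matplotlib 3.10.9).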

Additional observations from a re-analysis of the deposited data

How the results depend on the processing

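Of 44 values recomputed under alternative settings (distances of 500 and 2000 bp, the 5′ end of the gene only, a −log10 q of at least 5, the 10000 peaks of highest −log10 p, single-copy summits, other joining distances, an overlap of 50% of both peaks, ranks by fold or by width, and, added after seeing the data, overlapping peaks of both lists), 40 stayed within 1.5 times the count or within the interval of the median, and 4 moved. With the 10000 peaks of highest −log10 p of each list, 12 members had a start peak in offspring of asthmatic mothers (9.82% of all genes) in place of 44, and 26 had one in offspring of control mothers only in place of 5 (24.9% of all genes in place of 9.37%). With a −log10 q of at least 5, 8 members and 12.6% of all genes were in the control list only, the members being the 5 named and Eif2ak4, Eif2s1 and Eif3d. Ranked by domain width, the median percentile in offspring of asthmatic mothers was 52.8. Eif2b5 was in the control list only under each setting that gave this count. No paired analysis was possible because each group is 1 library. Depth is not given in the deposited lists. With 10 to 40 fragments at a summit, a ratio between the libraries was resolved from 1 for 14 of 44 members by counting error alone. The ratio was not scaled, and each of the 44 intervals included 0.611, the median of all genes marked in both lists. The smallest local background was 1.83 fragments in the control list and 1.57 in the asthmatic list. Within 1000 bp of an autosomal coding start lay 12446 of 42126 control peaks and 9927 of 51610 asthmatic peaks. The part of depth in these differences was not tested.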

Other observations

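The NRF1 motif was in 11.5% of member windows and 6.34% of all, and AANATGGCG, the site of YY1, in 5.77% and 3.14%. TATAAA was in 5.77% and 12.7%, and CCAAT in 28.8% and 38.2%. Among the other translation pathway genes, of which 32 of 35 were marked in both lists, Mtor had 34 and 16 summit fragments. Eef1a1, which encodes the main elongation factor, had 41 and 14 fragments, and Eef1g had 24 in offspring of control mothers and no start peak in offspring of asthmatic mothers.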
